A study of Hyphopichia burtonii with 8 samples.

Results

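The genes described are ERG3 (HYPBUDRAFT_163126), which encodes a sterol desaturase, and UPC2 (HYPBUDRAFT_153331), which encodes a transcription factor of sterol genes. They are 2 of the 6166 genes measured in the yeast Hyphopichia burtonii. Both were picked by name with results of the same libraries known. Which comparison led to the choice is not recorded; it was assumed to be NaCl against YPD, where earlier results had them among the largest falls. Under that assumption p-values are printed for them only between KCl and sorbitol, the comparison whose means use neither the NaCl nor the YPD libraries, and their other differences are a description with no test. All cells were wild type, of strain KJJ43, isolated from Nuruk (a grain starter for Korean rice wines). They were started at an OD600 of 0.6 and kept for 1 h in YPD, a rich glucose broth, either plain (the control) or with 1 solute at 1 M: sorbitol, KCl or NaCl. Salts dissociate and sorbitol does not, so the solutes also differ in osmolarity. Each medium had 2 libraries, so NaCl 1 is the first of the NaCl pair. The values were taken as FPKM, which corrects fragment counts for gene length and library depth. A gene was called in a comparison at a limma adjusted p under 0.05 over 5765 genes tested, and a called gene is said to have risen or fallen.

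Ergosterol is the main sterol of fungal membranes, where it sets fluidity and the packing of lipids around membrane proteins. It is made from acetyl-CoA through mevalonate and farnesyl diphosphate, which the squalene branch then turns into sterol in a series of steps, several of which consume oxygen and need haem or iron. Erg3 acts near the end of that series and inserts a double bond into the B ring of the sterol, taking electrons from cytochrome b5. In Candida albicans, loss of ERG3 is a known route to azole resistance. Upc2 is a zinc cluster transcription factor. In Saccharomyces cerevisiae and C. albicans it activates ERG genes when sterol is scarce. In S. cerevisiae, hyperosmotic stress is known to lower ERG transcripts. These roles are background from those relatives and were not measured here.

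In plain YPD, ERG3 stood at 326 FPKM in YPD 1 and 236 in YPD 2. It stood at 60.1 and 59.0 FPKM in NaCl 1 and NaCl 2, and at 125 and 117 in KCl 1 and KCl 2. In sorbitol it stood at 526 and 477 FPKM. The media thus followed each other from sorbitol at the top through YPD and KCl to NaCl, and no library of one medium overlapped with those of the next. The control pair was the widest of the 4 and the NaCl pair the closest.

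UPC2 gave the same order at lower levels. Its values were 98.4 FPKM in YPD 1 and 91.5 in YPD 2, and 22.7 and 22.9 in the NaCl libraries. The KCl libraries held 48.4 and 48.5 FPKM, and the sorbitol libraries 131 and 148. Here too each medium was separate from the next, and the replicates of both salts were nearly equal. Means ordered sorbitol, YPD, KCl, NaCl from high to low with no overlap between neighbouring media were seen in 1.39% of all genes tested, and means in that order, overlap allowed, in 8.57%. These shares describe the background of the pattern and are no test of the pair.

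**Figure D1:**
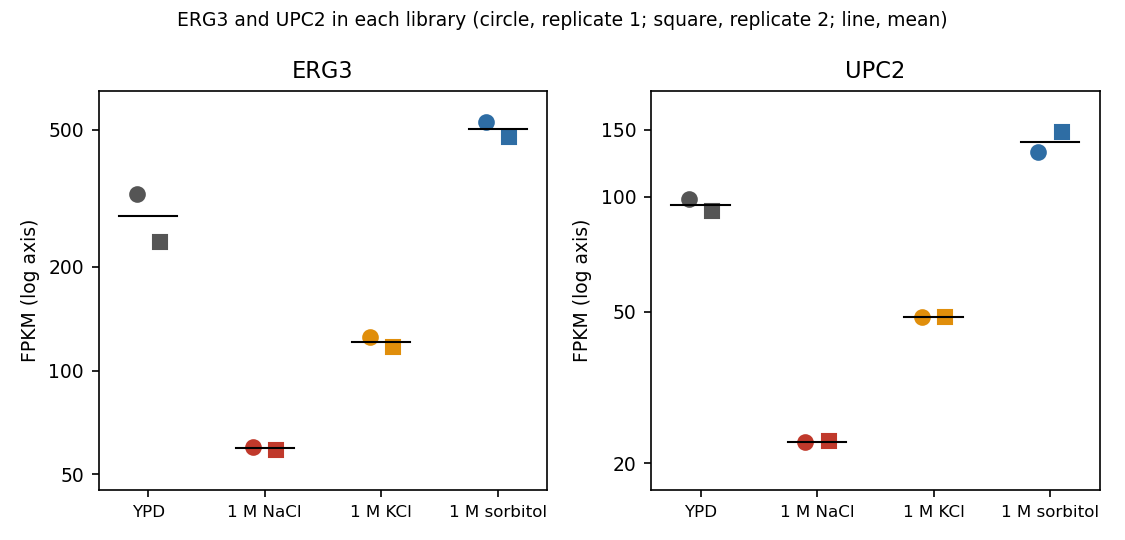
FPKM of ERG3 (left) and UPC2 (right) on a log axis in the 4 media, with a circle for replicate 1, a square for replicate 2 and a line at the mean of 2 libraries. NaCl is lowest and sorbitol highest for both genes, from 59.0 to 526 FPKM for ERG3 and from 22.7 to 148 FPKM for UPC2.

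As means, ERG3 was at 281 ± 63.9 FPKM (SD, n = 2) in YPD and 502 ± 34.7 in sorbitol, 121 ± 5.45 in KCl and 59.5 ± 0.825 in NaCl. The mean in YPD was 4.72 times that in NaCl and 2.32 times that in KCl, and the mean in sorbitol was 1.79 times that in YPD. The means of UPC2 were 139 ± 12.0 FPKM in sorbitol, 95 ± 4.90 in YPD, 48.5 ± 0.0403 in KCl and 22.8 ± 0.153 in NaCl. For UPC2 the mean in YPD was 4.17 times that in NaCl and 1.96 times that in KCl, and sorbitol was 1.47 times YPD. Both genes thus stood lower in NaCl than in KCl at the same molarity, by a factor of 2.04 for ERG3 and 2.13 for UPC2.

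On the log2(FPKM + 1) scale ERG3 differed from YPD by -2.20 ± 0.17 (limma estimate ± standard error) in NaCl, -1.19 ± 0.17 in KCl and 0.85 ± 0.17 in sorbitol. The same differences of UPC2 were -2.01 ± 0.14, -0.95 ± 0.14 and 0.55 ± 0.14. In NaCl these were the 18th and the 26th lowest of the 5765 log2 differences, ranks that restate the choice if it was made there. In KCl they ranked 75th and 118th from the lowest, and in sorbitol 302nd and 630th from the highest. The 3 differences of each gene share the YPD libraries. In bulk RNA of a culture, fewer cells expressing a gene and less of its RNA per cell cannot be told apart. Each value is also relative to the rest of its library.

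Between KCl and sorbitol, ERG3 was lower in KCl by 4.14 times in the means, a log2 difference of -2.04 ± 0.17 (95% interval -2.42 to -1.66; limma adjusted p = 6.7e-04, n = 2 per medium). UPC2 was lower in KCl by 2.87 times, a log2 difference of -1.50 ± 0.14 (95% interval -1.81 to -1.19; limma adjusted p = 0.001). Both libraries of KCl lay below both of sorbitol for each gene, while 6.18% of all genes tested were called in this comparison, 2.53% as lower in KCl and 3.64% as higher. Of all 5765 differences in this comparison, that of ERG3 was the 12th lowest and that of UPC2 the 26th. Both calls held without any 1 of the 8 libraries, with adjusted p-values of at most 0.0068 for ERG3 and 0.015 for UPC2. The means here come from libraries that NaCl against YPD does not use, but the estimate of spread is shared by all 8 libraries, and the pair was proposed with all media in view, so this p is not free of the choice if KCl or sorbitol values entered it.

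NaCl against sorbitol was the widest contrast for both genes. The sorbitol mean of ERG3 was 8.43 times its NaCl mean, a log2 difference of -3.05 ± 0.17, the 7th lowest of all genes tested. For UPC2 the sorbitol mean was 6.11 times the NaCl mean, with a log2 difference of -2.56 ± 0.14 that ranked 12th. No p is given for these, since they share the NaCl libraries with the comparison assumed to have led to the choice.

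The enzyme gene moved over a wider range than the regulator gene, and the ratio of the pair differed between media. ERG3 was 2.57 to 2.65 times UPC2 in FPKM in the NaCl libraries and 2.42 to 2.58 times in the KCl libraries. The ratio was 2.58 and 3.32 in the YPD libraries and 3.23 and 4.02 in the sorbitol libraries. The salt libraries therefore sat at the low end of the ratio, with YPD 2 beside them. ERG3 was a smaller part of the pathway in salt. It held 1.63% of the summed FPKM of the 24 sterol synthesis genes in either NaCl library and 2.20% and 2.29% in KCl. The share was 3.22% and 3.89% in YPD and 5.40% and 5.72% in sorbitol. The low share in NaCl beside YPD restates the choice if ERG3 was chosen on that comparison. By level, ERG3 stood in the top 6.83% to 6.99% of tested genes in sorbitol and in the top 36.0% to 36.4% in NaCl. UPC2 went from the top 17.7% to 19.9% in sorbitol to the top 64.3% to 64.6% in NaCl.

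The files give no counts, but low values fell on steps, which gave an estimate of the fragments behind each value. By this estimate ERG3 had 1206 to 1378 fragments in the NaCl libraries and up to 11143 in sorbitol 2. UPC2 had 965 to 1136 in NaCl and up to 7281 in sorbitol 2. No interval is drawn from estimated counts, and the part of counting error in the differences between media was not tested.

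The rest of the pathway comprised 23 measured sterol synthesis genes other than ERG3, from a list written with earlier results of these data known. In NaCl against YPD 17 of the 23 fell, none rose and 6 were not called, while 27.5% of all genes tested were called, 11.5% as lower and 16.0% as higher. On the deposited scale the genes called were 920 higher and 665 lower, which quantile normalization turned into 794 higher and 998 lower. The median log2 difference of the 23 was -0.62, against 0.00 over all genes tested, and the lowest of the 23 was -1.84. ERG3, assumed to have been chosen on this comparison, was at -2.20. The count of falls became 10 without NaCl 2. Both NaCl libraries lay below the other 6 libraries in 17 of the 23 genes, against 15.8% of all genes tested.

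Upstream of squalene the falls were fewer; the difference between the branches was not tested. Of the 9 mevalonate and isoprenoid genes 5 fell in NaCl, beside 11.5% of all genes tested. The median log2 difference of the 9 was -0.50, against 0.00 over all genes tested. IDI1 (isopentenyl diphosphate isomerase) fell from 250 ± 16.1 to 149 ± 10.1 FPKM (log2 -0.74 ± 0.13, limma adjusted p = 0.004). HMG1 (HMG-CoA reductase, the regulated step of the mevalonate route) had means of 55.5 ± 6.65 FPKM in NaCl and 62.8 ± 2.96 in YPD and was not called (log2 -0.18, limma adjusted p = 0.38). ERG20 (farnesyl diphosphate synthase), ERG8 (phosphomevalonate kinase) and BTS1 (geranylgeranyl diphosphate synthase, outside the sterol branch) were not called either. The 5 falls became 3 without YPD 1 or YPD 2 and 2 without NaCl 1 or NaCl 2.

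Of the 14 genes from squalene to ergosterol other than ERG3, 12 fell in NaCl, beside 11.5% of all genes tested. The median log2 difference of the 14 was -1.17, against 0.00 over all genes tested. ERG4, whose product makes ergosterol in the last step, fell from 783 ± 184 to 215 ± 0.937 FPKM (log2 -1.84 ± 0.18, limma adjusted p = 1.9e-04). ERG2 (sterol isomerase, the step before Erg3) fell from 395 ± 85.7 to 119 ± 8.99 FPKM (log2 -1.70 ± 0.18, limma adjusted p = 2.8e-04), and ERG1 (squalene epoxidase) had a log2 difference of -1.69 ± 0.12. ERG251, one of a pair of sterol methyl oxidase genes with ERG25, was at -1.64 ± 0.13 and ERG25 at -1.29 ± 0.17, both called. ERG7 (lanosterol synthase; log2 -0.38, limma adjusted p = 0.082) and ERG27 (keto reductase; log2 -0.33, limma adjusted p = 0.082) were not called. ERG11 (lanosterol demethylase, the azole target) fell by 1.58 ± 0.33 log2 units, from YPD libraries that differed widely, at 697 and 318 FPKM, and its call was lost without NaCl 2 (adjusted p = 0.055).

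**Figure D2:**
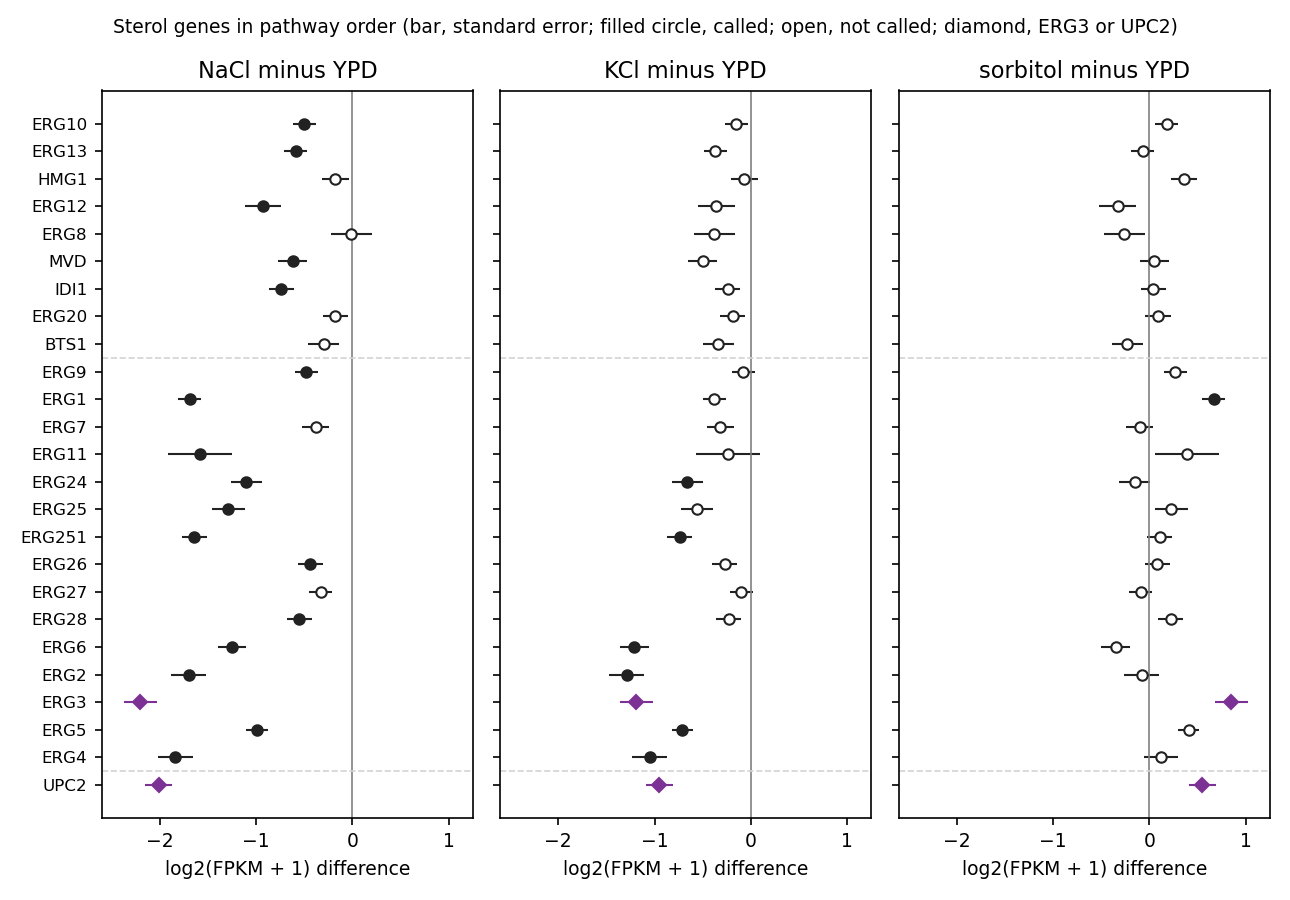
Difference in log2(FPKM + 1) from YPD for 24 sterol synthesis genes in pathway order and UPC2, in NaCl (left), KCl (middle) and sorbitol (right), with bars for the standard error. Filled circles are called genes and open circles are not; diamonds are ERG3 (-2.20, -1.19 and 0.85) and UPC2 (-2.01, -0.95 and 0.55), shown with no call; dashed lines part the mevalonate genes, the squalene branch and UPC2.

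In KCl the falls were fewer. Of the 23 genes 6 fell against YPD and none rose, while 11.0% of all genes tested were called, 4.51% as lower and 6.45% as higher. All 6 were in the squalene branch: ERG24, ERG251, ERG6, ERG2, ERG5 and ERG4. ERG2 fell from 395 ± 85.7 to 160 ± 4.05 FPKM (log2 -1.29 ± 0.18, limma adjusted p = 0.0056), and ERG6 (sterol methyltransferase) from 348 ± 41.9 to 150 ± 18.6 FPKM (log2 -1.21 ± 0.15, limma adjusted p = 0.0033). Beside them ERG3 stood at -1.19. ERG6 differed from ERG3 in that its NaCl and KCl means, 145 ± 7.28 and 150 ± 18.6 FPKM, were close (NaCl minus KCl log2 difference -0.04, not called). None of the 9 mevalonate genes was called. The 6 falls became 2 without YPD 1.

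In sorbitol the pathway showed little against YPD. Of the 23 genes 1 rose and none fell, while 4.96% of all genes tested were called, 3.75% as higher and 1.21% as lower (216 and 70 genes, or 163 and 93 after quantile normalization). The one was ERG1, from 786 ± 40.8 to 1254 ± 49.3 FPKM (log2 0.67 ± 0.12, limma adjusted p = 0.03), and its call was lost without any 1 of the YPD, NaCl or sorbitol libraries (adjusted p up to 0.13), as well as under quantile normalization or without the intensity trend. The median log2 difference of the 23 was 0.08, against -0.04 over all genes tested. ERG3, at 0.85, had the highest log2 difference of the 24 sterol synthesis genes in sorbitol, as it had the lowest in NaCl, and UPC2 at 0.55 lay above all of them but ERG3 and ERG1. The rank in NaCl restates the choice if ERG3 was chosen there. The sorbitol difference shares the YPD libraries with NaCl against YPD.

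The solutes were also compared with each other. In NaCl against KCl 6 of the 23 genes were lower and none higher (10.8% of all genes tested were called, 3.99% as lower and 6.80% as higher), among them ERG1 (log2 -1.31 ± 0.12, limma adjusted p = 3.3e-04) and ERG251 (-0.90 ± 0.13, limma adjusted p = 0.0029). The 6 became 2 without NaCl 1, NaCl 2 or KCl 1 and 3 without KCl 2. In NaCl against sorbitol 18 were lower and none higher (30.4% of all genes tested were called, 13.6% as lower and 16.8% as higher), with ERG1 at -2.37 ± 0.12. In KCl against sorbitol 7 of the 23 were lower, all in the squalene branch, among them ERG1 (-1.06 ± 0.12, limma adjusted p = 0.0036) and ERG5 (sterol desaturase of the side chain; -1.11 ± 0.11, limma adjusted p = 0.0019). In KCl against sorbitol 6.18% of all genes tested were called, 2.53% as lower and 3.64% as higher. ERG3 at -2.04 was the lowest of the 24 in that comparison and ERG2 at -1.21 the next. The 7 became 3 without KCl 2, sorbitol 1 or sorbitol 2, and ERG1 and ERG5 kept their calls without any 1 library.

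**Figure D3:**
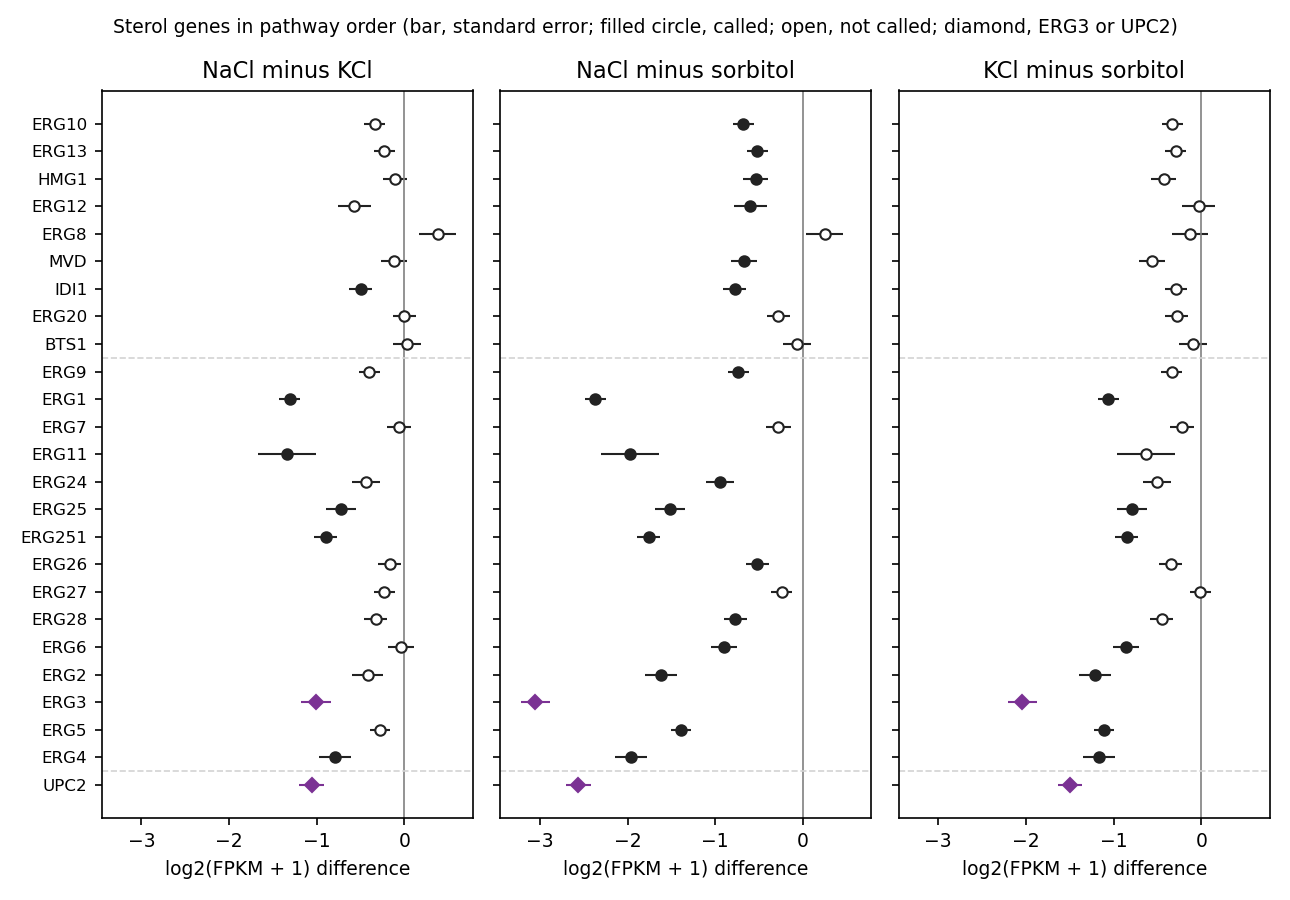
Difference in log2(FPKM + 1) between solutes for the same genes, NaCl minus KCl (left), NaCl minus sorbitol (middle) and KCl minus sorbitol (right), with bars for the standard error and filled circles for called genes. ERG3 (diamond) is at -1.01, -3.05 and -2.04 and UPC2 (diamond, last row) at -1.06, -2.56 and -1.50; both were called between KCl and sorbitol, the only panel in which they were tested.

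Of the 23 genes, 13 had medium means in the order of ERG3 and UPC2, against 8.57% of all genes tested. That order, sorbitol over YPD over KCl over NaCl, came with no overlap between neighbouring media in 7, against 1.39% of all genes tested. These 7 were ERG10 (acetoacetyl-CoA thiolase), ERG9 (squalene synthase), ERG1, ERG251, ERG26, ERG28 and ERG5. The fold between the highest and the lowest medium mean was 1.68 for ERG9, 5.18 for ERG1 and 2.64 for ERG5, beside 8.43 for ERG3 and 6.11 for UPC2.

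Erg3 depends on electron donors, and the sterol demethylase on haem. Of 5 such partner genes 3 fell and 1 rose in NaCl, beside 11.5% and 16.0% of all genes tested. These became 1 fall and no rise without YPD 1 or NaCl 1. NCP1, the reductase that feeds the cytochrome P450 enzymes, fell in NaCl from 279 ± 10.1 to 155 ± 11.4 FPKM (log2 -0.85 ± 0.13, limma adjusted p = 0.0021). CYB5, cytochrome b5, the donor of Erg3, was at 1033 and 1190 FPKM in sorbitol, 832 and 911 in YPD, 764 and 778 in KCl and 546 and 708 in NaCl. It was lower in NaCl than in sorbitol (log2 -0.83 ± 0.15, limma adjusted p = 0.0044), and its call against YPD (adjusted p = 0.045) was lost without any 1 library other than NaCl 2 (adjusted p up to 0.28), under quantile normalization and without the intensity trend. The cytochrome b5 reductase gene CBR1 was not called in any of the 6 comparisons. MCR1 was the partner gene that rose in NaCl, from 952 ± 95.6 to 1411 ± 61.4 FPKM (log2 0.57 ± 0.16, limma adjusted p = 0.035). Its call was lost without any 1 YPD or NaCl library and without the intensity trend.

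Among 7 haem synthesis genes 4 fell and 1 rose in NaCl, beside 11.5% and 16.0% of all genes tested. HEM13 (coproporphyrinogen oxidase, an oxygen-dependent step) was at 1050 and 1052 FPKM in sorbitol, 985 and 791 in YPD, 476 and 466 in KCl and 204 and 225 in NaCl. It fell in NaCl by 2.04 ± 0.14 log2 units (limma adjusted p = 2.7e-05) and was lower in KCl than in sorbitol (-1.16 ± 0.14, limma adjusted p = 0.0039). HEM14, which encodes the next enzyme, fell in NaCl by 1.21 ± 0.14 (limma adjusted p = 5.3e-04). HEM1, the first enzyme of the route, was the one that rose (0.70 ± 0.21, limma adjusted p = 0.039), a call lost without any 1 YPD or NaCl library (adjusted p up to 0.17) and under quantile normalization. The 4 falls became 2 without YPD 1, NaCl 1 or NaCl 2.

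Of 24 listed symbols of regulators, 14 were found, UPC2 among them. Of the 13 others, 1 fell and 3 rose in NaCl, beside the 11.5% and 16.0% of all genes tested. Their median r with UPC2 over the 8 libraries was -0.22. ECM22, named after the S. cerevisiae paralog of UPC2, was low throughout, with means of 6.31 ± 0.158 FPKM in NaCl and 4.54 ± 0.327 in YPD, and was not called (log2 0.40, limma adjusted p = 0.22). SUT1, named after a regulator of sterol uptake in S. cerevisiae, and the helix-loop-helix factor genes CPH2 and TYE7 were not called in any of the 6 comparisons. HMS1, another factor of that family, fell in NaCl from 676 ± 72.7 to 438 ± 36.8 FPKM (log2 -0.62 ± 0.13, limma adjusted p = 0.010), a call lost without YPD 1 or NaCl 2 (adjusted p up to 0.077). HMS1 was the regulator closest to the pair, with r = 0.97 to ERG3 and 0.95 to UPC2.

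The largest change of the 13 in NaCl ran opposite to UPC2. RFG1, whose C. albicans namesake is a repressor related to the hypoxic repressor Rox1 of S. cerevisiae, was at 17.7 and 12.3 FPKM in sorbitol, 11.3 and 11.6 in YPD, 41.4 and 64.9 in KCl and 94.9 and 129 in NaCl. It rose in NaCl by 3.17 ± 0.26 log2 units (limma adjusted p = 8.6e-05) and in KCl by 2.09 ± 0.26 (limma adjusted p = 0.0042), and was not called in sorbitol (0.34, limma adjusted p = 0.44). NDT80, an activator of sterol genes in C. albicans, rose from 16.9 ± 4.40 FPKM in YPD to 51.4 ± 1.05 in sorbitol, 44.3 ± 6.64 in KCl and 46.1 ± 16.7 in NaCl (limma adjusted p = 0.028, 0.019 and 0.0075). Each NDT80 call was lost without 1 or more single libraries: YPD 1 or NaCl 1 in NaCl (adjusted p up to 0.059), YPD 1 or KCl 1 in KCl (up to 0.13), and YPD 1 or either sorbitol library in sorbitol (up to 0.15). SSN6, a co-repressor gene, rose in NaCl (0.65 ± 0.14, limma adjusted p = 0.012, lost without YPD 1 or NaCl 1, up to 0.095). Without YPD 1 or NaCl 1 the 3 rises became 1.

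Erg3 belongs to a superfamily of di-iron enzymes that desaturate or hydroxylate lipids. The sterol methyl oxidase genes ERG25 and ERG251, also of this kind, fell in NaCl and were counted with the pathway. Outside sterol synthesis 8 listed genes of this kind were measured. In NaCl 4 of them fell and 2 rose, beside 11.5% and 16.0% of all genes tested, so the share that rose was not far from the background. SCS7, the hydroxylase of sphingolipid fatty acids, had the order of ERG3, at 845 ± 13.7 FPKM in sorbitol, 586 ± 20.3 in YPD, 369 ± 43.0 in KCl and 199 ± 18.3 in NaCl. It fell in NaCl (log2 -1.55 ± 0.13, limma adjusted p = 9.2e-05) and was lower in KCl than in sorbitol (-1.20 ± 0.13, limma adjusted p = 0.0026). SUR2, the sphinganine hydroxylase gene, fell in NaCl by 0.99 ± 0.17 (limma adjusted p = 0.0042), and OLE1, the stearoyl-CoA desaturase gene, by 0.64 ± 0.13 (limma adjusted p = 0.0099, lost without YPD 1 or NaCl 1, up to 0.079). The fatty acid desaturase genes FAD2 and FAD3 went the other way. FAD3 rose from 44.7 ± 4.69 to 199 ± 45.6 FPKM in NaCl (log2 2.11 ± 0.37, limma adjusted p = 0.0045), and FAD2 from 338 ± 12.2 to 578 ± 50.5 FPKM (0.77 ± 0.14, limma adjusted p = 0.0046). The 4 falls became 2 without YPD 1 or NaCl 1.

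Likeness to the pair was measured as Pearson's r over the 8 libraries on log2(FPKM + 1), as a description, since the points share 4 media of 2 libraries each. ERG3 and UPC2 had r = 0.990 with each other. UPC2 was the 2nd most like ERG3 of all genes tested, and ERG3 the 6th most like UPC2. Both were picked with results of these libraries known, so their likeness to each other may follow in part from the choice. The median r with UPC2 was 0.93 over the 23 sterol synthesis genes and -0.01 over all genes tested. Of the 23, 14 had an r of at least 0.9 with UPC2, as did 4.55% of all genes tested.

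The 10 named genes most like ERG3 were PFK1 (phosphofructokinase subunit; r = 0.992), UPC2, SCS7 (0.988), ERG5 (0.983), ERG28, CTR1 (copper transporter; 0.978), HEM14, ARO2 (chorismate synthase), HEM13 and XYL2 (xylitol dehydrogenase), with r of at least 0.976. Those most like UPC2 were SCS7 (0.993), PFK1 (0.992), TPS2 (trehalose phosphate phosphatase; 0.991), ERG3, HEM13 (0.990), CTR1, HEM14, OSM1 (fumarate reductase), ERG251 and PDX3 (pyridoxamine phosphate oxidase), with r of at least 0.982. The lists had 5 genes in common. Of these, CTR1 covered a fold of 6.34 between its highest and lowest medium, at 1277 ± 32.7 FPKM in sorbitol, 989 ± 34.9 in YPD, 402 ± 19.3 in KCl and 202 ± 50.4 in NaCl. PFK1, an abundant glycolytic gene, covered 2.56.

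**Figure D4:**
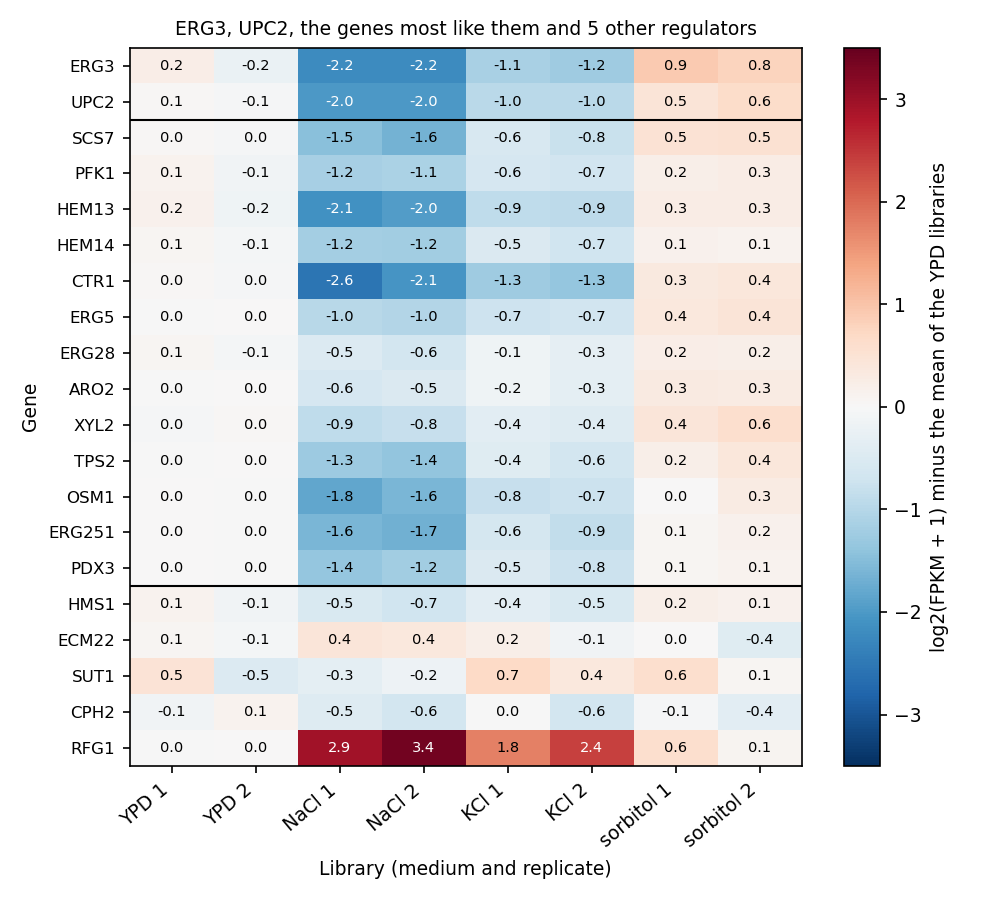
Difference in log2(FPKM + 1) from the mean of the YPD libraries, by library (columns) and gene (rows), with the value in each cell: ERG3 and UPC2 (top), the genes most like them (middle) and 5 other regulators (bottom). The genes most like the pair are lowest in NaCl, as ERG3 (-2.19 and -2.22) and UPC2 are, and RFG1 runs the other way. The middle genes were picked for their r with the pair over these same libraries, so their low NaCl values restate that choice.

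Replicates of 1 medium correlated at r = 0.984 to 0.990 across all genes, which are not independent replicates. The labels do not say whether the duplicates were separate cultures, and if they were not, the spread behind each p-value is technical.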

How the data were processed

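RNA of H. burtonii was sequenced in 8 libraries, 2 for each of 4 media. The deposited tables hold 1 value per gene and library, with no unit named. From their sums and decimals they were read as FPKM produced by the authors; Cufflinks and TopHat are the tools listed in the submitters' processing notes, with no version. The library kit was a directional one, per the labels' protocols. Build, annotation, filters and strand setting: not given in the sources used here. No position is therefore printed. Symbols came from the RefSeq table of assembly Hypbu1 (strain NRRL Y-1933), where 6157 of 6166 genes matched by locus tag.

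A gene was tested if 2 or more libraries reached 1 FPKM (5765 genes). The log2(FPKM + 1) values, not scaled further, entered 1 model of 4 groups and all 8 libraries in limma 3.58.1 (R 4.3.3), with an intensity trend. Residual degrees of freedom were 4, or 8.31 after adding the prior. Each of the 6 comparisons was adjusted by the Benjamini-Hochberg method. The fit was tested on simulated data. Fragments were estimated from the step between low values: 87.4% to 91.0% of these were whole multiples of it to within 0.15 steps. No interval covers these estimates.

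ERG3, UPC2 and the gene lists were chosen with earlier results of these data known. Named genes were ERG3, UPC2, measured list members and the 10 genes with a symbol most like each by r. List members were matched by symbol, which 2355 of the 6166 genes carried, so other genes of each function may have gone uncounted. Lists were described by counts and medians.

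Alternatives were a pseudocount of 0.1, no filter, quantile normalization, median-ratio scaling, no trend, the replicate number as a block, and leaving out each library.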

Additional observations from a re-analysis of the deposited data

How the results depend on the processing

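ERG3 and UPC2 kept the direction of all 6 differences under each alternative run, and their calls between KCl and sorbitol held in each. Quantile normalization put UPC2 at -2.16 in NaCl and -1.03 in KCl against YPD and at -1.13 in NaCl against KCl, where a pseudocount of 0.1 gave -1.09. It also left 0 sterol synthesis genes called in sorbitol against YPD, as did the fit with no intensity trend (0), which called 112 genes there in place of 286. Neither scaling moved the median log2 difference of all genes by more than 0.10. Summed FPKM was 1649003 and 1520928 in sorbitol, 1335005 and 1373405 in YPD, 1428950 and 1250656 in KCl, and 1197308 and 1209649 in NaCl. Quantile normalization put ERG3 at 0.68 and UPC2 at 0.44 in sorbitol against YPD.

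Leaving out 1 library gave ERG3 ranges of -2.43 to -1.97 in NaCl, -1.42 to -0.96 in KCl and 0.62 to 1.08 in sorbitol against YPD, -1.06 to -0.97 in NaCl against KCl, -3.12 to -2.98 in NaCl against sorbitol and -2.11 to -1.97 in KCl against sorbitol. For UPC2 these were -2.06 to -1.96, -1.01 to -0.90, 0.46 to 0.63, -1.06 to -1.05, -2.65 to -2.47 and -1.59 to -1.41. In the same order, genes called ranged over 713 to 1552, 111 to 609, 4 to 234, 231 to 563, 965 to 1752 and 60 to 247, and sterol synthesis genes called over 10 to 17, 2 to 7, 0 to 1, 2 to 5, 14 to 18 and 3 to 7. The lowest counts over all genes came without NaCl 1 for NaCl against YPD, KCl and sorbitol, without YPD 1 for KCl and sorbitol against YPD, and without sorbitol 2 for KCl against sorbitol. The lowest sterol synthesis counts were 10 without NaCl 2 for NaCl against YPD and 14 without NaCl 2, sorbitol 1 or sorbitol 2 for NaCl against sorbitol. A medium left with 1 library was assumed to vary like the others. Of the 10 genes most like ERG3, 6 to 8 remained (2 by Spearman's rho), and of those most like UPC2 6 to 9 (5 by rho, 6 after quantile normalization). Of 165 calls of single named genes, 29 to 55 were lost without 1 library.

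Replicate numbers were shared between media, and the labels do not say what a number marks. Deviations of same-numbered libraries correlated at -0.13 (YPD and NaCl), 0.10 (NaCl and sorbitol), 0.26 (YPD and KCl), 0.30 (YPD and sorbitol), 0.30 (NaCl and KCl) and 0.45 (KCl and sorbitol). Since 2 of the 6 were not above 0.1 they were not treated as paired, but a shared source of some pairs was not tested further. With the replicate number as a block, 516 genes were called in sorbitol against YPD in place of 286 and 536 in KCl against sorbitol in place of 356, and 0 of the 165 calls were lost.

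The files give no counts, so depth limits low genes to an unknown extent.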

Other observations

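Genes of sterol handling outside synthesis were also measured. The list of sterol esterification, hydrolysis, transport and uptake held 28 symbols, of which 5 were found. Genes of this function with no symbol were not counted. In NaCl 16.0% of all genes tested were called higher and 11.5% lower. Of the 5, 2 rose in NaCl and none fell, and fewer were called without any 1 YPD or NaCl library. They were NCR1, of sterol transport in the vacuole, from 15.4 ± 1.29 to 28.6 ± 3.77 FPKM (limma adjusted p = 0.014, lost without YPD 2 or NaCl 1, up to 0.11), and PRY1, a sterol-binding secreted protein gene, from 47.2 ± 1.11 to 89.0 ± 21.1 FPKM (limma adjusted p = 0.010, lost without YPD 1 or NaCl 2, up to 0.063). Of 32 listed symbols of sphingolipid synthesis, 14 were found. Of these 14 genes, 3 rose and 1 fell in NaCl, shares near those of all genes tested. The 3 rises became 0 without NaCl 1, 1 without YPD 1 or NaCl 2 and 2 without YPD 2 or under quantile normalization. The gene that fell, YDC1 (ceramidase), was at 104 ± 6.36 FPKM in sorbitol, 172 ± 2.08 in YPD, 104 ± 6.64 in KCl and 117 ± 0.706 in NaCl, so it was lower in all 3 solutes (limma adjusted p = 0.028 in sorbitol, 0.013 in KCl and 0.013 in NaCl). The 3 calls were lost without any 1 YPD or NaCl library in NaCl (up to 0.075), without YPD 1 or KCl 1 in KCl (up to 0.074), and without any 1 YPD, NaCl or sorbitol library in sorbitol (up to 0.13).

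Of 16 listed symbols of drug efflux and related genes, 7 were found. Among these 7, 1 fell and 1 rose in NaCl, again near the shares of all genes, and the rise was lost without NaCl 1. The one that fell, ROA1, an ABC transporter gene, went from 84.6 ± 2.83 FPKM in YPD to 20.9 ± 4.64 in NaCl (log2 -1.98 ± 0.24, limma adjusted p = 6.2e-04), while its means were 85.4 ± 28.8 in KCl and 78.8 ± 1.33 in sorbitol. It was lower in NaCl than in KCl (log2 -1.96 ± 0.24, limma adjusted p = 0.0014), where ERG3 and UPC2 differed by -1.01 and -1.06. TPO3, a polyamine transporter gene, was higher in replicate 2 than in replicate 1 in each of the 4 media: 352 and 1374 FPKM in sorbitol, 238 and 804 in YPD, 150 and 559 in KCl and 162 and 204 in NaCl.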
